A study of Homo sapiens with 30 samples.

Results

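Genes for 9 secreted factors that have been tied to cancer cachexia or to the release of fat from adipose tissue were examined in 3 human cancer lines grown in acidic or in neutral medium. The genes were PTHLH, AZGP1, LIF, LCN2, NPPC, FGF19, ANGPTL4, NAMPT and PDGFA. They were chosen by name, and all 9 were found among the 38122 genes of the table. FaDu cells come from a squamous tumour of the hypopharynx, SiHa cells from one of the cervix, and HCT116 cells from a colorectal carcinoma. All were cultured in DMEM with 10% fetal bovine serum, 10 mM glucose, 2 mM glutamine, penicillin, streptomycin, 25 mM HEPES and 25 mM PIPES, at 37 °C in 5% CO2, with the pH set to 7.4 or to 6.5. The cells at pH 6.5 had been held at that pH for at least 1 month. All 6 groups therefore shared the base medium and both buffers, and no group had a genetic change or a drug. RNA was sequenced in 5 libraries per group, 30 in all. Whether libraries within a group stem from separate cultures or from separately adapted cells is not stated in the labels, and the spread that p-values measure may therefore be technical.

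Cachexia is the loss of fat and muscle that accompanies many tumours, and tumour cells can drive it by releasing hormones and cytokines that act on distant tissue. Parathyroid hormone-related protein (PTHLH) acts through the receptor PTH1R and can switch white fat to heat production. Zinc-alpha-glycoprotein (AZGP1) mobilises lipid, LIF signals through LIFR and the shared subunit IL6ST, and lipocalin 2 (LCN2) binds iron-loaded siderophores and can suppress appetite. C-type natriuretic peptide (NPPC) belongs to a peptide family that stimulates lipolysis in human fat cells, FGF19 is a gut hormone that limits bile acid synthesis, and ANGPTL4 inhibits lipoprotein lipase. NAMPT makes a precursor of NAD and is also found outside cells, and PDGFA activates the receptor PDGFRA on fat cell progenitors.

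Sequencing depth was 21.02 to 55.7 M reads, and values are normalised read counts. Up to 3 reads are compatible with a count of 0, a limit of 1.90 to 5.01 normalised counts by library that covers counting error only. For 9 libraries the values were kept apart from the groups. The libraries labelled FaDu pH 7.4 replicates 2 to 5 carried HCT116 genes, whose level was 80.4%, 30.6%, 42.7% and 61.9% of that in HCT116. The libraries labelled HCT116 pH 6.5 replicates 5 to 7 carried SiHa genes, whose level was 37.5%, 101% and 104% of that in SiHa. Their HCT116 genes stood at 58.8%, 1.94% and 0.581% of the level in HCT116, so replicates 6 and 7 held almost no HCT116 reads. The SiHa libraries of pH 7.4 labelled replicates 6 and 7 had VIM at 2817 and 2863, against at most 165 in the other SiHa libraries. In the 21 libraries that remained, genes of another line stood at a median of no more than 0.0708% of their own level. The levels in percent are medians over genes restricted to 1 line. Such genes were picked as near absent from the other lines in FaDu and SiHa at pH 6.5 and HCT116 at pH 7.4. For those groups the low value was fixed by the choice, and only the other kept libraries were checked by it. Setting the 9 libraries apart left 5 at pH 6.5 against 3 at pH 7.4 in SiHa, 2 against 5 in HCT116 and 5 against 1 in FaDu. Every result below is from these 21 libraries unless all libraries as labelled are named. Of the 10 colon epithelium markers, 4 had a mean of at least 10 in HCT116 at pH 6.5 and 6 at pH 7.4, and CDX1 was at 0. Their summed level was 1508 to 2131 in HCT116 against at most 59.6 in the other lines. Most of that sum was CDX2, KRT20 and, at pH 7.4, HNF4A, which was far lower at pH 6.5. In HCT116, VIL1 at pH 6.5 and LGALS4 at both pH values had lower means than in FaDu at pH 6.5. Of the 10 squamous epithelium markers, all had a mean of at least 10 in FaDu, but KRT13 was at 0 in SiHa, where TP63, DSG3 and DSC3 were also low.

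The promoters of the 4 genes with the largest called changes are shown for reference, as the 250 bases before the RefSeq transcription start in build GRCh38.p14. They lie at chr2:231926397-231926646 on the minus strand for NPPC, chr12:27969977-27970226 on the minus strand for PTHLH, chr9:128149203-128149452 on the plus strand for LCN2 and chr7:99976032-99976281 on the minus strand for AZGP1. Sequences run 5′ to 3′ towards the start, and capitals mark every match, on either strand, to a searched motif.
NPPC: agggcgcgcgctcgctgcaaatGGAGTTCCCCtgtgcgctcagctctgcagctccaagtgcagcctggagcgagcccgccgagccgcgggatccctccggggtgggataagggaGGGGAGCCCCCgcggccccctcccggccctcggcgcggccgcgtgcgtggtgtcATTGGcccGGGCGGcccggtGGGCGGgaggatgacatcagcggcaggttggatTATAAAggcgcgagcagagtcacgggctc
PTHLH: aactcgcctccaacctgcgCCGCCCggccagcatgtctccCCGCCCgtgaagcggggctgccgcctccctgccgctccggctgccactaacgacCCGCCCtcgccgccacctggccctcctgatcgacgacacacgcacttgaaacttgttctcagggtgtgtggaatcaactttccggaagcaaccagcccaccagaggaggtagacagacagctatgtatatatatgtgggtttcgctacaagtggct
LCN2: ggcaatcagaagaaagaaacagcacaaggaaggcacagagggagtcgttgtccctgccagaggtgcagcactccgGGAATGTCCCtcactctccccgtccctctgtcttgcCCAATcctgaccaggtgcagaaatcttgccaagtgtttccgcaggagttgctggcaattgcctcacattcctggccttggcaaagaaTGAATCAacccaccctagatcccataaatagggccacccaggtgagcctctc
AZGP1: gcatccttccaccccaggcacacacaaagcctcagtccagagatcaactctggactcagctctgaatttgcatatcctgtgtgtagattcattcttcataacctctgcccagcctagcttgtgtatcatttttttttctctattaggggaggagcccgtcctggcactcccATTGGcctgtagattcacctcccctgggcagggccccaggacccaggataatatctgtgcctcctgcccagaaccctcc
The motifs searched were the TATA box (TATAAA), the GC box (GGGCGG), the CCAAT box (CCAAT) and an AP-1 pattern (TGANTCA). Next came the cyclic AMP response element (TGACGTCA), the core of the hypoxia response element (ACGTG) and the NF-kB consensus. The AP-1 pattern takes any central base and is looser than the AP-1 consensus. Among 35116 human promoters of the same length the motifs, in the order given, were present in 10.7%, 42.6%, 32%, 6.57%, 1.65%, 18.5% and 9.96%. The NPPC window held a TATA box 29 to 24 bases before the start, 2 GC boxes, a CCAAT box and 3 matches to the NF-kB consensus, of which 2 overlap each other. The PTHLH window held 3 GC boxes, all written as CCGCCC. The LCN2 window held an NF-kB match at 175 to 166 bases before the start, a CCAAT box and a match to the loose AP-1 pattern (TGAATCA) at 52 to 46. The AZGP1 window held only a CCAAT box, read as ATTGG, 79 to 75 bases before the start. Guanine and cytosine made up 72% of the NPPC window, 61.6% of PTHLH, 54.8% of LCN2 and 52.8% of AZGP1. A match is a description of the letters and does not show that a factor binds there.

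In SiHa at pH 6.5, the RNA for C-type natriuretic peptide fell to near the limit of a count of 0, and that for PDGFA was lower. NPPC (ENSG00000163273) stood at 101.8, 77.7 and 94.8 in the 3 libraries at pH 7.4 and at 8.09, 2.80, 4.48, 5.17 and 1.71 at pH 6.5. The groups did not overlap, and the lowest neutral library was above the highest acidic one by far more than either group's spread. The means were 91.4 ± 12.4 (SD, n = 3) and 4.45 ± 2.45 (SD, n = 5), a 20.6-fold lower mean. The log2 change was -4.20 ± 0.39 (SE; limma with Benjamini-Hochberg adjustment, adjusted p = 7.47e-05). In bulk RNA, fewer cells that express a gene and less RNA per cell cannot be told apart. The 2 SiHa libraries of pH 7.4 that were kept apart had NPPC at 86.6 and 46.7, also above every acidic library.

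PDGFA (ENSG00000197461) was an abundant transcript in SiHa, at 2039, 1747 and 1607 at pH 7.4 and at 1383, 998, 1229, 821 and 757 at pH 6.5. All acidic libraries lay below all neutral ones, and the means differed 1.73-fold. The log2 change was -0.82 ± 0.19 (limma adjusted p = 0.00794). These 2 genes were the called ones among the 7 that could be tested, against 31.2% of all 18555 genes tested in SiHa, 15% called higher and 16.2% lower. FGF19 was at 0 in all 8 libraries, and AZGP1 was at 0 in 7 of them and at 0.862 in pH 6.5 replicate 6, so neither could be tested.

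The other SiHa factors overlapped between the groups. PTHLH (ENSG00000087494) was at 251, 291, 176, 99.95 and 48.7 at pH 6.5 and at 401, 212 and 196 at pH 7.4, with a log2 change of -0.82 ± 0.51 (limma adjusted p = 0.237). LIF (ENSG00000128342) ranged from 99.5 to 260.1 at pH 6.5. At pH 7.4 it was at 731 in replicate 1 and at 176 and 162 in the other libraries. Its log2 change was -0.58 ± 0.48, and without pH 7.4 replicate 1 it was 0.12. LCN2 (ENSG00000148346) was low and scattered, at 10.8 to 72.4 at pH 6.5 and 31.6 to 38.4 at pH 7.4. ANGPTL4 (ENSG00000167772) had means of 119 and 68.5, a log2 change of 0.74 ± 0.38 (limma adjusted p = 0.160). NAMPT (ENSG00000105835) had means of 3610.2 ± 822 (SD) at pH 6.5 and 2905 ± 274 at pH 7.4.

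**Figure D1:**
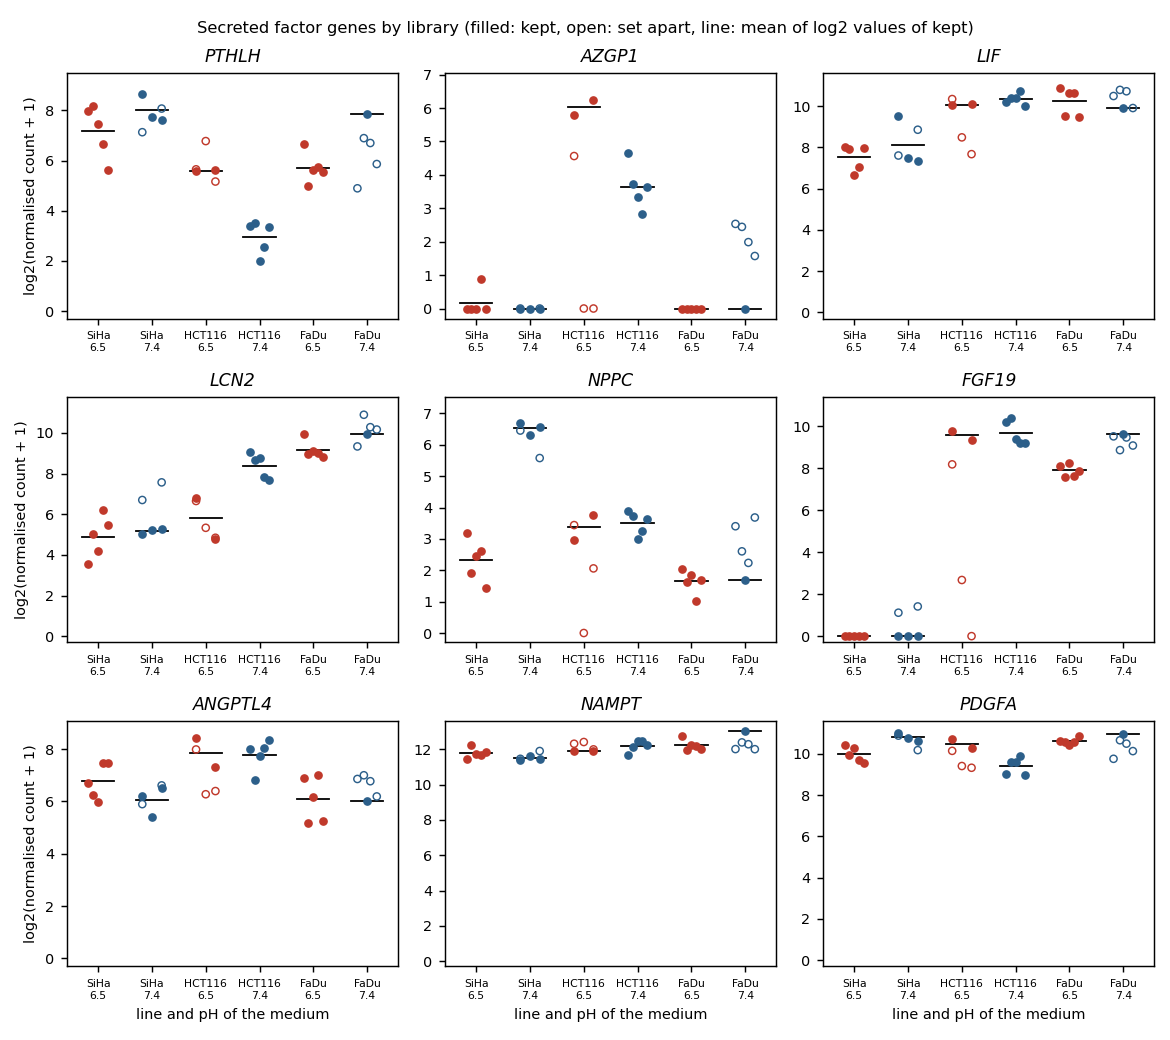
Log2 of the normalised count plus 1 of the 9 genes in every library, by line and pH of the medium. Red is pH 6.5, blue is pH 7.4, filled points are the 21 kept libraries, open points are those kept apart and lines are means of the kept log2 values. NPPC is high only in the SiHa libraries of pH 7.4, and FGF19 is at 0 in all kept SiHa libraries.

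Receptors that bind or clear natriuretic peptides also changed in SiHa. NPR3, the clearance receptor that removes natriuretic peptides, was at 186, 220, 183, 181 and 173 at pH 6.5 and at 22.4, 13.3 and 23.7 at pH 7.4. The log2 change was 3.23 ± 0.21 (limma adjusted p = 1.28e-05), so the ligand and its clearance receptor moved in opposite directions. NPR2, the guanylyl cyclase that C-type natriuretic peptide activates, was low and fell, from a mean of 23.8 to 7.88 (log2 change -1.54 ± 0.44, limma adjusted p = 0.0221). NPR1, the receptor for the cardiac peptides, was at 404 to 1655 at pH 6.5 and 363 to 410.4 at pH 7.4, and was not called. Of the 3 members of the natriuretic peptide and receptor list that were tested, 1 rose and 1 fell, against 31.2% of all genes called.

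The family of parathyroid hormone, its receptors and the proprotein convertases that process such peptides had 4 of 6 tested genes lower in SiHa, against 16.2% of all genes, and the other 2 were not called. The convertase genes PCSK5, PCSK6 and PCSK7, whose products cut prohormones and pro-growth factors, had log2 changes of -1.54 ± 0.16, -1.15 ± 0.13 and -0.82 ± 0.09 (limma adjusted p = 0.000112, 0.000190 and 0.000179). The mean of PCSK5 was 169 at pH 6.5 and 492 at pH 7.4. PTH1R, the receptor of parathyroid hormone-related protein, was called lower from a mean of 15.1 to one of 2.52, and the 2 kept-apart libraries of pH 7.4 had 2.34 and 8.34. The median log2 change over this list was -0.98, against -0.01 over all genes tested.

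Around LIF, whose own change was not called, 2 receptor genes and a feedback inhibitor rose. LIFR, the receptor of LIF, was at 1216 to 1738 at pH 6.5 and at 689 to 985 at pH 7.4 (log2 change 0.86 ± 0.14, limma adjusted p = 0.00129). IL6R, which binds interleukin 6, was at 319 ± 60.6 against 144 ± 37.0 (SD; log2 change 1.14 ± 0.20, limma adjusted p = 0.00223). SOCS3, a feedback inhibitor that this pathway induces, was at 518 ± 156 against 273 ± 27.2 (log2 change 0.88 ± 0.21, limma adjusted p = 0.00971). Of the 13 tested genes of the interleukin 6 family list, these 3 rose and JAK1, a kinase bound to the receptors, fell by 0.26 on the log2 scale. The other 9, IL6ST among them, were not called, and the 4 calls stand against 31.2% called over all SiHa genes.

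The lipocalin list in SiHa held the largest single change among the partners. LRP2 (megalin), an endocytic receptor that takes up LCN2, was at 491, 341 and 1028 at pH 7.4 and at 4.04, 0, 0.897, 12.1 and 19.6 at pH 6.5. Its log2 change was -6.86 ± 0.87 (limma adjusted p = 0.000344). RBP4, a lipocalin that carries retinol, fell from a mean of 344 to 23.0 (log2 change -4.07 ± 0.43, limma adjusted p = 0.000140). The other LCN2 receptor gene, SLC22A17, rose from 982 to 1697 (log2 change 0.78 ± 0.11, limma adjusted p = 0.000681). In all, 3 of 5 tested genes of the list fell and 1 rose, against 16.2% and 15% of all genes.

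For the remaining partners, PDGFRL, a relative of the PDGF receptors, was lower in SiHa at pH 6.5 with a log2 change of -1.32 ± 0.39 (limma adjusted p = 0.0270). FGFR3 was higher by 1.16 ± 0.25 (limma adjusted p = 0.00573). It was the one gene called among 4 tested endocrine FGFs and receptors, against 31.2% of all genes called. PPARG, the fat cell regulator that can drive ANGPTL4, was at 228 ± 68.3 against 978 ± 65.4 (SD; log2 change -2.15 ± 0.23, limma adjusted p = 0.000144). In the PPAR and fatty acid list 4 of 10 tested genes rose and 3 fell, against 15% and 16.2% of all genes, and PPARD and ACSL1 were higher by 0.55 ± 0.09 and 0.48 ± 0.11. In the NAD list 3 of 16 rose and 6 fell, against 15% and 16.2% of all genes. NMNAT2 and NMRK1, which make NAD or its precursor, had log2 changes of -1.20 ± 0.22 and -1.03 ± 0.23, and NT5E, an ectonucleotidase, one of 0.97 ± 0.32 (limma adjusted p = 0.0417). In the NF-kB list 1 of 16 rose and 3 fell, which is 4 calls against 31.2% of all genes. TNFAIP2 and the subunit gene NFKB2 were at -0.88 ± 0.18 and -0.83 ± 0.18, and the adhesion molecule ICAM1 was higher by 0.54 ± 0.16 (limma adjusted p = 0.0284). Of 3 tested angiopoietin-like proteins and lipases beside ANGPTL4, limma called 0 in SiHa, 0 had an unadjusted p under 0.05, and edgeR and DESeq2 also called 0.

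**Figure D2:**
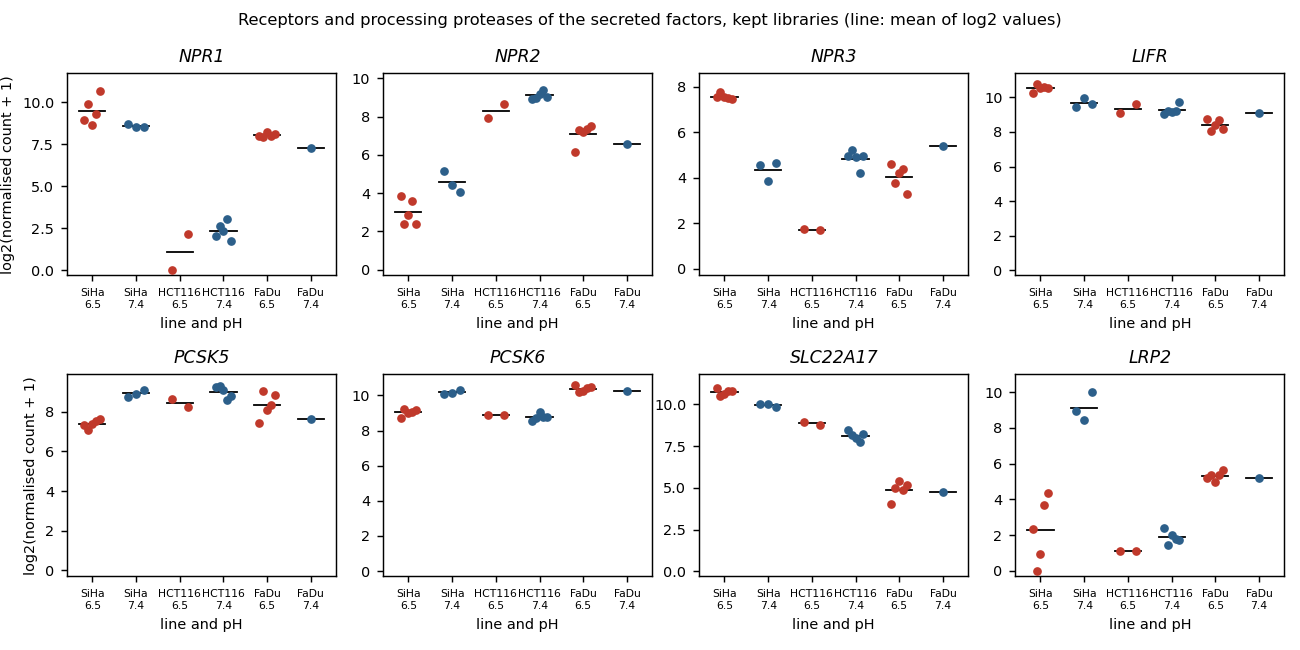
Log2 of the normalised count plus 1 for receptors and processing proteases of the secreted factors in the 21 kept libraries, by line and pH. Red is pH 6.5, blue is pH 7.4, and lines are means of the log2 values. In SiHa NPR3 is higher at pH 6.5, at 173 to 220 against 13.3 to 23.7, and LRP2 lower, while NPR3 in HCT116 goes the other way.

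In HCT116, 3 of the 9 genes were higher at pH 6.5 (PTHLH, AZGP1 and PDGFA) and LCN2 was lower, against 20.2% of all 18885 genes tested, 9.11% called higher and 11.1% lower. PTHLH stood at 46.9 and 47.9 in the 2 libraries at pH 6.5 and at 9.53, 10.5, 3.02, 4.91 and 9.17 at pH 7.4. The acidic libraries lay above all neutral ones, with a mean 6.39-fold higher. The log2 change was 2.63 ± 0.48 (limma adjusted p = 0.00248). The libraries kept apart from this group, which carry SiHa genes, had 49.3, 109 and 34.9. SiHa itself had PTHLH at 48.7 to 291 at pH 6.5, above neutral HCT116, so these values cannot show a change in HCT116.

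AZGP1 (ENSG00000160862) was at 54.9 and 74.1 at pH 6.5 and at 24.4, 12.2, 9.06, 6.14 and 11.5 at pH 7.4. The groups did not overlap, and the mean was 5.10-fold higher (log2 change 2.38 ± 0.46, limma adjusted p = 0.00349). Its pseudogenes AZGP1P1 and AZGP1P2 did not exceed 2.12 in any kept HCT116 library. With all libraries as labelled, the change was -0.32 and was not called (limma adjusted p = 0.861). The 3 libraries added there were at 22.7, 0 and 0. PDGFA was at 1681 and 1232 at pH 6.5 and at 515, 789, 787, 959 and 495 at pH 7.4, again without overlap. Its log2 change was 1.07 ± 0.25 (limma adjusted p = 0.0110). It lost its call without pH 6.5 replicate 1 (0.84, adjusted p = 0.150) and with all libraries as labelled (0.55, adjusted p = 0.189).

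LCN2 went the other way. It was at 112 and 26.2 at pH 6.5 and at 526, 399, 433, 227 and 202 at pH 7.4, so the groups did not overlap but the acidic pair differed widely. The mean was 5.17-fold lower at pH 6.5, with a log2 change of -2.59 ± 0.49 (limma adjusted p = 0.00311). Without pH 6.5 replicate 3 the log2 change was -1.57 (limma adjusted p = 0.0542). The libraries kept apart from this group, which carry SiHa genes, had 99.5, 39.3 and 27.7. With all libraries as labelled the change was -2.71 (limma adjusted p = 0.00581). SiHa itself had LCN2 at 10.8 to 72.4 at pH 6.5, below neutral HCT116, so neither result can show a change in HCT116.

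The other 5 genes overlapped between the pH groups of HCT116. FGF19 (ENSG00000162344) was at 893 and 658 at pH 6.5 and at 585 to 1332 at pH 7.4. LIF was at 1075 and 1095 against 1019.7 to 1709.8, with a log2 change of -0.25 (95% interval -0.64 to 0.13). NAMPT was at 3871 and 3901 against 3277 to 5768. ANGPTL4 was at 339 and 159.7 against 112 to 325, and NPPC was near its floor at 6.87 and 12.5 against 7.05 to 13.8. None of these passed the test. Of the 10 squamous epithelium markers, 9 had a mean of at least 10 in HCT116 at pH 6.5 and 6 at pH 7.4. Their summed levels were 11775 to 22587 and 16811 to 25775, and most of each sum was SFN. The sums hide changes in opposite directions. The keratin genes KRT5, KRT14 and KRT6A had far higher means at pH 6.5, and KRT17, KRT13 and DSG3 also had higher ones. SFN, LAMB3, DSC3 and TP63 had lower means at pH 6.5. Of the 10 colon markers, 4 had a mean of at least 10 at pH 6.5 and 6 at pH 7.4. The part of these markers in the results was not tested.

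**Figure D3:**
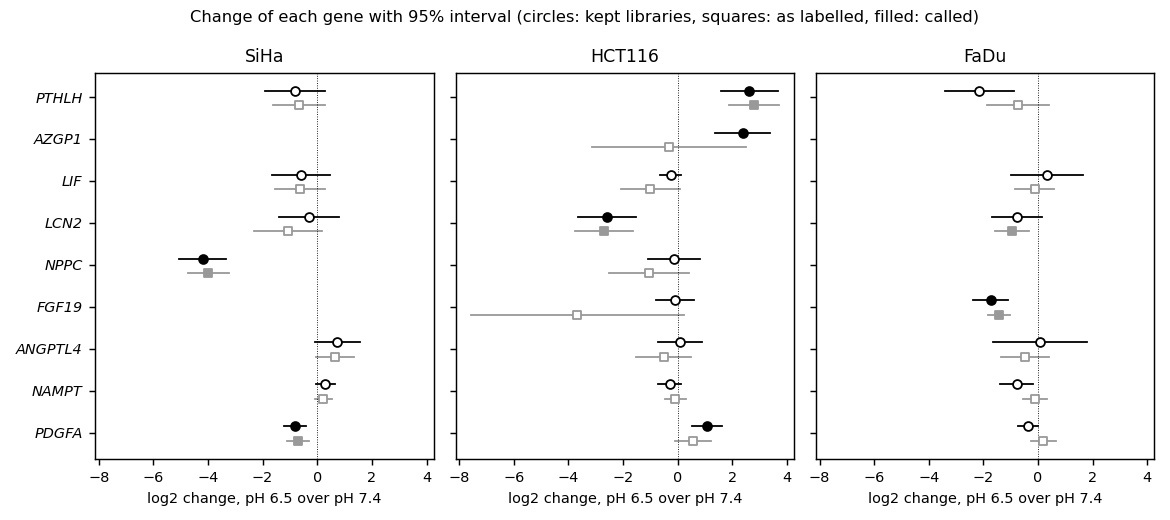
Log2 change of each gene, pH 6.5 over pH 7.4, with its 95% interval from limma, in the 3 lines. Circles are the kept libraries, squares all libraries as labelled, and filled symbols are called at an adjusted p under 0.05. NPPC in SiHa lies at -4.20, PTHLH in HCT116 at 2.63 and LCN2 in HCT116 at -2.59, and the interval of FGF19 in HCT116 widens when all libraries are used.

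Among the partners in HCT116, NPR3 moved opposite to SiHa. It was at 2.29 and 2.28 at pH 6.5 and at 17.2 to 35.7 at pH 7.4 (log2 change -3.12 ± 0.39, limma adjusted p = 0.000180), and NPR2 fell from 555 to 325 (log2 change -0.81 ± 0.21, limma adjusted p = 0.0175). With NPPA, the atrial peptide gene, 3 of 4 tested genes of the natriuretic list fell in HCT116, against 11.1% of all genes. PTH2, a peptide ligand of another receptor of the parathyroid hormone class, rose from 19.0 to 70.3 (log2 change 1.88 ± 0.36, limma adjusted p = 0.00364). It was the one call among 6 in that list, against 20.2% of all genes called. PTH1R itself did not exceed 4.91 in any kept HCT116 library.

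FGFR4, the main receptor of FGF19, was at 3824 and 3358 at pH 6.5 and at 4069 to 5285 at pH 7.4 (log2 change -0.44 ± 0.13, limma adjusted p = 0.0378). FGFR1 was lower by -0.81 ± 0.17 (limma adjusted p = 0.00701). KLB, the co-receptor that FGF19 needs, was at 6.87 and 11.4 against 7.37 to 16.1. LIPG, a lipase of the lipoprotein lipase family, fell from 361 to 88.6 (log2 change -1.99 ± 0.21, limma adjusted p = 5.35e-05). PDGFC fell by 1.09 on the log2 scale and PDGFRL rose by 0.96, while PDGFRA, the receptor of PDGFA, did not exceed 2.01 in kept HCT116 libraries. SLC22A17 rose by 0.76 ± 0.20 (limma adjusted p = 0.0173).

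Genes often read as NF-kB targets were listed because LCN2 is also induced by this factor. In that list 6 of 15 tested genes rose and 3 fell in HCT116, against 9.11% and 11.1% of all genes, with a median log2 change of 0.69 against -0.01 over all genes. In SiHa the median of the list was -0.23. BIRC3, an inhibitor of apoptosis, rose from 159 to 618 (log2 change 1.93 ± 0.26, limma adjusted p = 0.000322), and the chemokine CXCL1 rose from 18.1 to 85.2 (2.01 ± 0.43, adjusted p = 0.00692). ICAM1 fell from 216 to 12.0 (-4.04 ± 0.24, limma adjusted p = 4.77e-07). In the PPAR and fatty acid list 1 of 13 rose and 5 fell, against 9.11% and 11.1% of all genes. ACSL1, which activates fatty acids, went from 4653 to 1109 (-2.06 ± 0.15, limma adjusted p = 2.68e-06). PPARG and PPARD were lower by -1.07 ± 0.17 and -1.05 ± 0.21. The NAD list had 1 of 14 genes higher (NADK2, a mitochondrial NAD kinase, at 0.90 ± 0.21) and 1 lower. In the interleukin 6 family list 1 of 12 rose and 1 fell, namely STAT3, its transcription factor, at 0.41 ± 0.13 and the cytokine gene CLCF1 at -0.93 ± 0.28 (limma adjusted p = 0.0455 and 0.0328). For the NAD and interleukin 6 lists these counts stand against 20.2% of all genes called.

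FaDu had a single kept library at pH 7.4, and the test assumes that it varies like the libraries at pH 6.5. The one called gene of 7 tested was FGF19, lower at pH 6.5, against 7.36% of all 19170 genes tested, 4.24% called higher and 3.12% lower. FGF19 was at 272, 194, 309, 201 and 236 at pH 6.5 and at 792 in the library of pH 7.4. All 5 acidic libraries lay below it, with a mean 3.27-fold lower and a log2 change of -1.73 ± 0.27 (limma adjusted p = 0.0194). The 4 libraries kept apart from the pH 7.4 group, which carry HCT116 genes, had 738, 468, 711 and 544. HCT116 itself had FGF19 at 585 to 1332 at pH 7.4, above acidic FaDu, so these values cannot show a change in FaDu. The call was lost without pH 6.5 replicate 3, 4 or 5, at adjusted p of 0.0571, 0.0649 and 0.0517, with log2 changes between -1.82 and -1.65 over all omissions.

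In FaDu 3 other genes did not pass the test, although all acidic libraries lay below the single neutral one. How many of all genes show that order was not counted, so no weight rests on it. PTHLH was at 99.9, 30.5, 48.1, 53.3 and 45.3 against 232 (log2 change -2.15 ± 0.54, limma adjusted p = 0.0559). NAMPT was at 6877, 4077, 4831, 4753 and 4161 against 8362 (-0.79 ± 0.26, adjusted p = 0.108). PDGFA was at 1402 to 1853 against 2021 (-0.37 ± 0.16, adjusted p = 0.180). LCN2 was at 997 in pH 6.5 replicate 1 and at 447 to 551 in the other 4, against 972, so the groups overlapped. Without that replicate, 4 of the 7 genes were called lower (PTHLH, LCN2, FGF19 and NAMPT) and 7039 genes in place of 1411 were called over the whole table. VIM was at 44.8 in that replicate, at 2.08 to 4.42 in the other 4 and at 36.2 at pH 7.4, and the part of such differences in the result was not tested. LIF was at 723 to 1897 against 957, and ANGPTL4 at 34.7 to 127 against 63.7. AZGP1 was at 0 in all 6 FaDu libraries, and NPPC did not exceed 3.12.

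Among the partners in FaDu, IL6ST, the signalling subunit that LIF shares with interleukin 6, was at 859 to 1149 at pH 6.5 against 1806 (log2 change -0.97 ± 0.18, limma adjusted p = 0.0287). NPR1 was at 248 to 304 against 156 (0.78 ± 0.18, limma adjusted p = 0.0473), a call that edgeR did not make. PDGFC was lower by -0.59 ± 0.14 (limma adjusted p = 0.0470). FGF21, a fasting hormone of the same endocrine family as FGF19, was at 0 to 3.12 against 60.4, so both hormones were lower at pH 6.5 (-4.62 ± 0.83 on the log2 of count plus 1, adjusted p = 0.0256). In the parathyroid hormone, lipocalin and NF-kB lists limma called 0 of 5, 0 of 6 and 0 of 18 tested genes, with 2, 1 and 0 at an unadjusted p under 0.05. There edgeR called 0, 1 and 0, and DESeq2 1, 1 and 0. In the NAD list 2 of 15 were called, both higher, against 7.36% of all genes. They were NMNAT3, which makes NAD, at 0.90 ± 0.21 and PARP1, which uses it, at 0.72 ± 0.16 (limma adjusted p = 0.0487 and 0.0436). HILPDA, a lipid droplet protein that inhibits lipolysis, was higher by 0.63 ± 0.14 (limma adjusted p = 0.0446). It was 1 of 11 in the PPAR and fatty acid list, against 7.36% of all genes called.

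Of 32 other genes for secreted factors of cachexia or lipolysis, 22 were tested in SiHa, 21 in HCT116 and 26 in FaDu. In SiHa 2 rose and 4 fell, 6 of 22 against 31.2% of all genes called, with ADM, a vasodilator peptide, at 1564 ± 782 against 4646 ± 1076 (SD; log2 change -1.70 ± 0.36, limma adjusted p = 0.00570). WNT5A, a secreted Wnt ligand, fell from 33127 to 16755, and ADM2, a relative of ADM, rose from 58.4 to 161. In HCT116 5 rose and 3 fell, 8 of 21 against 20.2%. FST, which binds and blocks activins, rose from 5.26 to 106, although its acidic libraries stood at 31.9 and 179.7 (log2 change 3.81 ± 0.70, limma adjusted p = 0.00278). CXCL8, the chemokine interleukin 8, rose from 45.7 to 352 (2.85 ± 0.55, adjusted p = 0.00367), and IGFBP3, which binds insulin-like growth factors, rose from 22.6 to 102 (2.52 ± 0.65, adjusted p = 0.0173). In FaDu 1 rose and 4 fell, 5 of 26 against 7.36%, among them FGF21, WNT5A (-5.08 ± 1.19, limma adjusted p = 0.0475) and ADM2 (-2.45 ± 0.50, adjusted p = 0.0362). ADM2 was therefore higher at pH 6.5 in SiHa and lower in FaDu, where a single library was kept at pH 7.4.

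**Figure D4:**
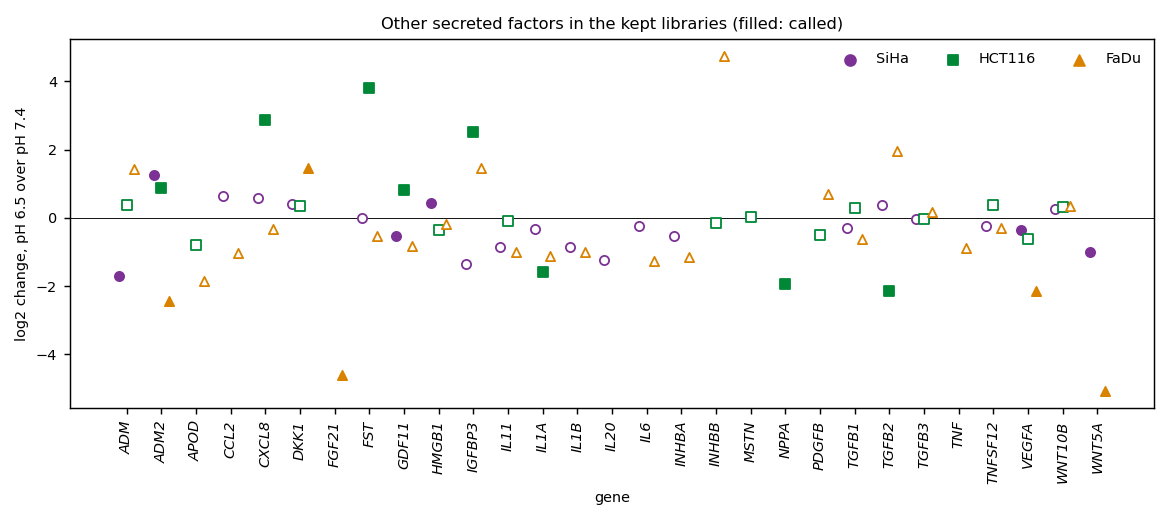
Log2 change, pH 6.5 over pH 7.4, of other genes for secreted factors of cachexia or lipolysis in the kept libraries of SiHa (circles), HCT116 (squares) and FaDu (triangles). Filled symbols are called at a limma adjusted p under 0.05, and genes below the filter in a line have no symbol. FST at 3.81 and CXCL8 at 2.85 lead in HCT116, and WNT5A at -5.08 and FGF21 at -4.62 are lowest in FaDu.

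The pH effect on these factors differed between the lines, in a single limma fit over the 21 libraries. For SiHa minus HCT116, 5 of 9 differences were called, against 24.5% of all genes tested. They were NPPC at -4.06 ± 0.55 (limma adjusted p = 2.17e-05), PTHLH at -3.45 ± 0.74 (0.00187), AZGP1 at -2.20 ± 0.52 (0.00434), PDGFA at -1.89 ± 0.32 (0.000199) and LCN2 at 2.30 ± 0.74 (0.0284). For HCT116 minus FaDu, 4 were called against 15.9%, namely PTHLH at 4.78 ± 0.91, AZGP1 at 2.38 ± 0.65, FGF19 at 1.63 ± 0.50 and PDGFA at 1.44 ± 0.39. For SiHa minus FaDu, 3 were called against 14.9%, namely NPPC at -4.17 ± 0.65, FGF19 at 1.73 ± 0.48 and NAMPT at 1.08 ± 0.34. With all libraries as labelled, 5 of these 12 differences were called. Both AZGP1 for SiHa minus HCT116 (0.50, limma adjusted p = 0.802) and FGF19 for HCT116 minus FaDu (-2.25, adjusted p = 0.305) turned sign there and were not called. Where a line has a gene at or near 0 at both pH values, the difference is the change of the other line. This holds for FGF19 and AZGP1 in SiHa, and for AZGP1 and NPPC in FaDu. PDGFA was the gene called in opposite directions in 2 lines, and no difference was called for LIF or ANGPTL4.

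**Figure D5:**
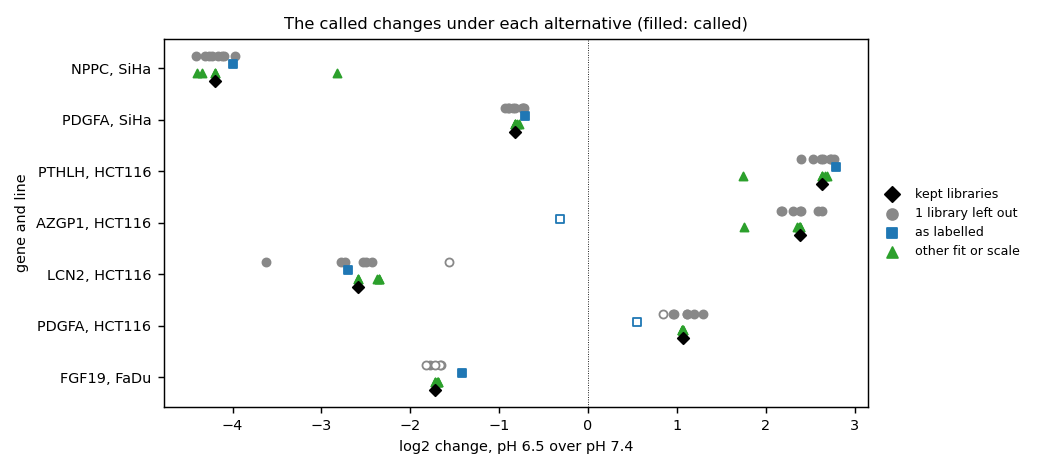
The 7 called changes of single genes within a line under every alternative except the replicate block, as log2 change of pH 6.5 over pH 7.4. Diamonds are the kept libraries, circles leave out 1 library, squares use all libraries as labelled, triangles are other fits or scales, and filled symbols are called. NPPC and PDGFA in SiHa and PTHLH in HCT116 are filled throughout, and AZGP1 in HCT116 is at -0.32 with the libraries as labelled.

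Levels of the same gene were then compared between all pairs of the 6 groups, in the single fit. Of all genes, between 48.8% and 73.6% differed between groups of different lines. Against FaDu at pH 6.5 the share was 63% for HCT116 at pH 6.5, 71.4% for HCT116 at pH 7.4, 70.2% for SiHa at pH 6.5 and 65.5% for SiHa at pH 7.4. Against FaDu at pH 7.4 it was 48.9%, 53.6%, 52.5% and 48.8% in the same order. Between HCT116 at pH 6.5 and SiHa it was 63.9% at pH 6.5 and 59.1% at pH 7.4, and between HCT116 at pH 7.4 and SiHa it was 73.6% and 68.5%. Within a line it was 25.8% in SiHa, 20.7% in HCT116 and 11.6% in FaDu. FGF19 was highest in HCT116 at pH 7.4, FaDu at pH 7.4 and HCT116 at pH 6.5, which did not differ from one another, and stood above FaDu at pH 6.5 (limma adjusted p = 5.75e-05), which stood above SiHa (1.61e-17). Among the kept libraries, AZGP1 exceeded the limit of a count of 0 only in HCT116. LCN2 was highest in FaDu at either pH and in HCT116 at pH 7.4, with no difference between these neighbours, and lower in HCT116 at pH 6.5 and in SiHa. LIF was at like levels in FaDu and HCT116 with no called neighbours, and FaDu at pH 7.4 stood above SiHa at pH 7.4 (limma adjusted p = 0.0321).

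PTHLH was highest in SiHa at pH 7.4, FaDu at pH 7.4 and SiHa at pH 6.5, whose neighbours did not differ. FaDu at pH 6.5 followed, below SiHa at pH 6.5 (limma adjusted p = 0.00368) and with no called difference from HCT116 at pH 6.5, and HCT116 at pH 7.4 was lowest (limma adjusted p = 0.00166 against HCT116 at pH 6.5). NPPC was highest in SiHa at pH 7.4, above HCT116 at pH 7.4 (limma adjusted p = 2.00e-07), and SiHa at pH 6.5 was below HCT116 at pH 6.5 (0.0324). ANGPTL4 was highest in HCT116 at both pH values, and SiHa at pH 6.5 was below HCT116 at pH 7.4 (limma adjusted p = 0.0272) but not below HCT116 at pH 6.5 by the test (0.0742). PDGFA ran from FaDu at pH 7.4 down to SiHa at pH 6.5 in steps that were not called, although these ends differed (limma adjusted p = 0.0103), and HCT116 at pH 7.4 was below SiHa at pH 6.5 (limma adjusted p = 0.00832). For NAMPT, whose group means lay between 2905 and 8362, no pair of neighbours differed, but groups farther apart did. FaDu at pH 7.4 stood above both HCT116 groups (limma adjusted p = 0.00588 at pH 6.5 and 0.0172 at pH 7.4) and both SiHa groups, and FaDu at pH 6.5 and HCT116 at pH 7.4 also stood above both SiHa groups.

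Per kilobase of exon, NAMPT had the highest level of the 9 genes in 5 of the 6 groups, from 399 to 924 normalised counts per kilobase. In SiHa at pH 7.4 PDGFA was above it, at 433 against 321. NPPC ranked 4 of 9 there at 85.4 per kilobase, and 7 of 9 at pH 6.5 at 4.15. PTHLH in HCT116 went from 2.20 at pH 7.4 to 14.0 at pH 6.5 and was still among the lowest. Exon lengths are those of GENCODE 29, which may differ from the annotation behind the counts.

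The libraries kept apart also showed the lines through these genes. The libraries labelled HCT116 pH 6.5 replicates 6 and 7 had FGF19 at 5.40 and 0, AZGP1 at 0 and LIF at 359 and 204, against 658 or more, 54.9 or more and 1075 or more in replicates 1 and 3. Their NPR3 stood at 389 and 593, above the SiHa libraries of pH 6.5. The 4 libraries labelled FaDu pH 7.4 replicates 2 to 5 had AZGP1 at 4.79, 4.44, 2.97 and 1.97, against 0 in every kept FaDu library. With all libraries as labelled, 2 of the 9 genes were called in each line. In SiHa both were lower (NPPC and PDGFA), against 40.8% of all genes called, 19.7% higher and 21.1% lower. In HCT116 PTHLH was higher and LCN2 lower, against 18.2% called, 8.56% higher and 9.62% lower. In FaDu FGF19 and LCN2 were lower (LCN2 log2 change -0.95, limma adjusted p = 0.0212), against 46.3% called, 24% higher and 22.3% lower. That FGF19 result cannot show a change in FaDu, since HCT116 itself had FGF19 at 585 to 1332 at pH 7.4.

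Genes whose log2 level was most like each factor over the 21 libraries were listed as a description, and the points share lines and pH. For PTHLH these were TMEM138 (Pearson r = 0.951) and the keratin gene KRT16 (0.950), for LCN2 GTF3C1 (0.943) and MMP16 (0.940), and for NPPC ACADSB (0.936) and PPP1R21 (0.916). For AZGP1 they were HLA-DOA (0.971) and GFY (0.961), and for FGF19 RPE65 (0.995) and MOCS1 (0.994). LIF was most like PPM1J (0.933) and the AP-1 subunit gene FOSL1 (0.930), ANGPTL4 like CAPN10 (0.873) and PWP2 (0.860), and PDGFA like COA3 (0.900) and DBNL (0.886). NAMPT was most like NAMPTP1 (0.946), its processed pseudogene, and FXR1 (0.922). NAMPTP1 stood at 177 to 537, and reads could be split between this pair of near-identical sequences. The exons of PTHLH, LIF, ANGPTL4 and NAMPT overlap antisense genes by 353, at most 175, 1 and 786 bases. The strand setting is not given in the sources used here, so reads of these pairs cannot be told apart.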

How the data were processed

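RNA was sequenced from 30 libraries. Build GRCh37 and the tools DESeq2 1.22.2, STAR 2.6.1d, Trimmomatic 0.38, FastQC and bcl2fastq 2.20 are named per the submitters' processing notes. What counted the reads, with which strand setting and annotation, is not given in the sources used here. Values as deposited are a signal per gene, read counts that the authors divided by size factors. They were whole multiples of 1 step per library within 0.01 of a step for 100% of values, so whole reads were recovered, and the size factors equalled the median of ratios over all 30 libraries. Symbols were matched for 35466 of 38122 Ensembl identifiers, and 2656 had none. List genes without a match, such as LPL, ADIPOQ, IL17A and PTH, were not analysed here.

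Within each line, limma 3.58.1 with an intensity trend compared log2(normalised count + 1) between pH 6.5 and pH 7.4 for genes whose mean reached 10 in the higher group. Tests were 2-sided, with Benjamini-Hochberg adjustment over all genes tested and calls under 0.05. Fold changes on this scale understate changes of low genes. Differences between lines and between groups came from 1 fit over 21 libraries. Alternatives were all libraries as labelled, that joint fit, a pseudocount of 10, no filter, edgeR 4.0.16 and DESeq2 1.42.0 on the recovered reads, a replicate block and leaving out each library. The quasi-likelihood test of edgeR called 5877 genes in SiHa, 3916 in HCT116 and 1368 in FaDu. The limma step was tested on simulated data. The software was R 4.3.3, Python 3.11.15, matplotlib 3.10.9, scipy 1.17.1, pandas 2.3.3 and numpy 2.4.6. Promoters are from RefSeq, GRCh38.p14, which held an entry for 7 of the 9 genes.

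The members, the lists and the libraries kept apart were chosen with earlier results of these data known, so no p-value is adjusted over a list alone. All 9 genes are given. From each other list, up to 3 called genes per line with the largest change and a mean of at least 50 are named, with receptors and close relatives of the factors. Genes that complete a count of 5 or fewer were named after their values were seen. The likeness search named the 2 genes with the highest Pearson r among 14304 genes with a symbol and a group mean of at least 100.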

Additional observations from a re-analysis of the deposited data

Results flagged for a closer look

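Within groups, 3 values stood far from the others among 25 groups checked, where chance gives about 1 in 20. AZGP1 was at 0.862 in SiHa pH 6.5 replicate 6, which is a single read, and at 0 in the other 4 libraries of that group. LCN2 was at 997.3 in FaDu pH 6.5 replicate 1, against 447 to 551 in the other 4. NAMPT was at 6877 in the same library, against 4077 to 4831.

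The pH effect differed between lines in 12 of 27 limma comparisons of the 9 genes, which share lines and so are not separate results. Over all genes, the shares called were 24.5% for SiHa minus HCT116, 14.9% for SiHa minus FaDu and 15.9% for HCT116 minus FaDu. For SiHa minus HCT116 the called differences in log2 change among the 9 genes were -3.45 for PTHLH, -2.20 for AZGP1, 2.30 for LCN2, -4.06 for NPPC and -1.89 for PDGFA. For SiHa minus FaDu they were -4.17 for NPPC, 1.73 for FGF19 and 1.08 for NAMPT. For HCT116 minus FaDu they were 4.78 for PTHLH, 2.38 for AZGP1, 1.63 for FGF19 and 1.44 for PDGFA. Those with FaDu rest on 1 library at pH 7.4.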

How the results depend on the processing

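In SiHa, NPPC and PDGFA were called in all 15 alternatives, with log2 changes of -4.41 to -2.82 and -0.94 to -0.58. PTHLH was called in all 14 alternatives in HCT116, at 1.74 to 2.79. Of these, the fit of all libraries as labelled cannot show a change in HCT116, since PTHLH in acidic SiHa was above neutral HCT116. The calls in FaDu depend on the libraries used. With all libraries as labelled, 2 of the 9 genes were called in HCT116 in place of 4, and 2 in FaDu in place of 1. In FaDu 2 were also called with a pseudocount of 10, edgeR, DESeq2 and the replicate block. Over the omissions of 1 library the count ran from 0 to 4 in FaDu. Genes called in FaDu were 1411, and 9115 as labelled, 2566 in the joint fit, 2659 with DESeq2, 8851 with the replicate block and 66 to 7039 with 1 library left out. In SiHa the omissions gave 3551 to 6473, the lowest without pH 7.4 replicate 5, and in HCT116 2198 to 5150, the lowest without pH 6.5 replicate 1. Called FaDu genes were 57.5% higher at pH 6.5 with limma, 43.8% with edgeR, 47.4% with a pseudocount of 10 and 38.8% with no filter. Called differences between lines as labelled were 3 for SiHa minus HCT116, 1 for SiHa minus FaDu and 1 for HCT116 minus FaDu. The cause of these shifts was not tested, beyond the fewer or more samples in each.

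As labelled, the called differences of AZGP1 for SiHa minus HCT116 (-2.20) and of FGF19 for HCT116 minus FaDu (1.63) turned to 0.50 and -2.25 and were not called. The following changes within a line turned sign, none with a call after the turn. As labelled, they were -0.32 for AZGP1 and -0.50 for ANGPTL4 in HCT116, and -0.13 for LIF, -0.47 for ANGPTL4 and 0.20 for PDGFA in FaDu, the same values as with the replicate block there. LCN2 in SiHa was at 0.033 with edgeR and 0.0032 with DESeq2. Over the omissions of 1 library, LIF in SiHa ran from -0.96 to 0.12, LCN2 in SiHa from -0.62 to 0.040, NPPC in HCT116 from -0.53 to 0.26, FGF19 in HCT116 from -0.31 to 0.13, ANGPTL4 in HCT116 from -0.45 to 0.63 and ANGPTL4 in FaDu from -0.15 to 0.31.

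Labels share replicate numbers between pH groups. Deviations of same-numbered SiHa libraries correlated at 0.316, 0.0478 and 0.0790, against -0.255 to 0.128 for different numbers. Same-numbered HCT116 libraries were at 0.173 and 0.0553, against -0.173 to 0.115. With 2 acidic HCT116 libraries the deviations mirror each other, so that line cannot show a pairing. In FaDu as labelled, same-numbered libraries were at 0.0465 to 0.0760, against -0.104 to 0.0800. The numbers were not taken as pairs, and these values do not settle whether they are. With the replicate block, 5237 genes were called in SiHa and 2927 in HCT116, NAMPT in HCT116 was at 0.0146, and FGF19 in HCT116 became called at -0.71 (limma adjusted p = 0.0102). For FaDu the block was run on the libraries as labelled, since 1 kept library leaves no pairs.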
